A study of Rattus norvegicus with 46 samples.

Results

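Irradiated rat skin that had been given RTA-408 was compared between day 3 and day 1, after the last injection of the drug on day 0. The comparison used 6 of the 46 Clariom S arrays of the series, 3 from day 3 and 3 from day 1. They were chosen by their titles, which give the arm, the day and the rat, and the same 3 rats (numbers 324, 323 and 303) were biopsied on both days, so each rat served as its own reference. All 23188 non-control features of the array were tested.

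The animals were Sprague-Dawley rats, and each array measured RNA from a 5 mm punch of abdominal skin. Rats of this group had received 40 Gy to the skin as 4 fractions of 10 Gy of 6 MeV electrons, every other day in a course of 8 days, and injections of RTA-408 dissolved in DMSO on days -7, -5, -3 and 0. Beside them stand irradiated skin of 3 other rats injected with DMSO alone (3 arrays on day 3 and 3 on day 1) and unirradiated skin of 2 rats injected with DMSO (2 arrays on each day). Day 3 and day 1 thus share the radiation, the drug and the DMSO within the RTA-408 arm, and DMSO is common to all 3 arms. The labels give neither the age nor the sex of the rats, and each rat was wounded repeatedly by its own biopsies. The question addressed is how the transcript profile shifted over the interval in which the drug was no longer given.

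RTA-408 (omaveloxolone) is a triterpenoid that binds KEAP1. KEAP1 normally hands the transcription factor NRF2 over for degradation, and when KEAP1 is blocked NRF2 accumulates, enters the nucleus and switches on genes through antioxidant response elements. The products of these genes conjugate and reduce electrophiles and quinones, make glutathione, recycle thioredoxin and supply NADPH, and in skin they are known for protecting keratinocytes against oxidants.

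Signals are the deposited log2 values. They range from 2.10 to 19.93, wider than an unstretched 16-bit scanner can give, so no folds are given and each difference is one of deposited log2 values. The median of an array was 6.84 to 6.95, and that of the 1153 negative control features 5.78 to 6.52. Pairs of arrays within a day of the RTA-408 arm correlated across features with r of 0.980 to 0.988, and the arrays of the same rat on day 3 and day 1 with r of 0.980 to 0.985. Keratinocyte and dermal genes were bright: Krt14 averaged 18.27 on day 3 and 17.91 on day 1, and Col1a1 averaged 18.84 on day 3 and 18.94 on day 1. Skeletal muscle was also in the biopsies, with the mean of 25 muscle genes between 14.76 and 15.69 on the day 3 arrays and between 15.39 and 16.17 on the day 1 arrays. Spike-in controls part the 46 arrays into 3 sets of 18, 10 and 18, here sets I, II and III. In the RTA-408 arm the day 1 arrays lay in sets I, I and II for rats 324, 323 and 303, and the day 3 arrays in sets III, II and III, so that no rat had both days in the same set. The same held for each irradiated vehicle rat. In the unirradiated arm both day 1 arrays lay in set I and both day 3 arrays in set III.

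By limma, with the rat as a block and Benjamini-Hochberg adjustment over all features, 13 features were lower and 2 were higher on day 3 than on day 1 at an adjusted p under 0.05, which is 0.0561% and 0.00863% of the features tested (0.0647% in either direction). The smallest adjusted p was 3.29e-05. Of these 15 features 12 carry a gene symbol. Among the 11 named genes that fell, 7 encode NRF2-regulated enzymes and related proteins (Gstm1, Nqo1, Aldh3a1, Gsta1, Gstp1, Akr7a3 and Osgin1). The other 4 were Star, the clock gene Per2, and the glucocorticoid-responsive genes Zbtb16 and Fkbp5. The named gene that rose was Gp2. The median difference over all features was -0.00.

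The 15 features moved the same way in each of the 3 rats, and their day 3 and day 1 arrays did not overlap. Such separation is common in these arrays, since 10.4% of all features had no overlap between the days, 11.5% were lower in all 3 rats and 12.4% were higher in all 3 rats. At an unadjusted p under 0.05 there were 1046 features (520 higher and 526 lower), where 1159 would be expected by chance.

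**Figure D1:**
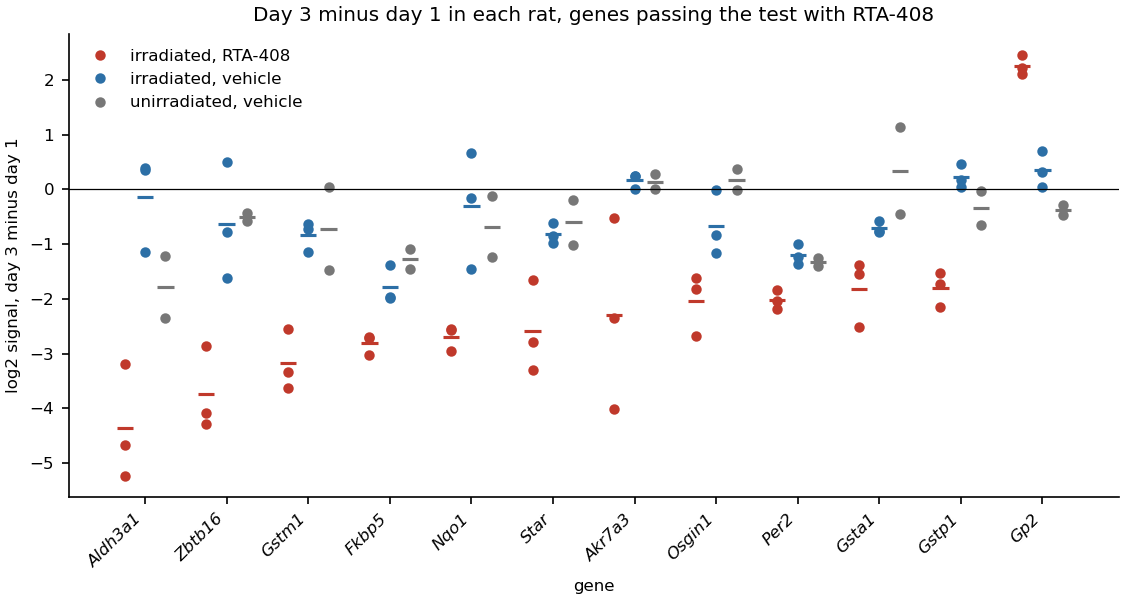
Day 3 minus day 1 in log2 signal (vertical axis) for the 12 named genes that passed the test in the RTA-408 arm (horizontal axis). Points are rats, 3 with RTA-408 and radiation, 3 with vehicle and radiation and 2 unirradiated, and short lines are means. All 3 RTA-408 rats are below 0 for 11 genes and above 0 for Gp2, which follows in part from their choice by the test in that arm. The vehicle points lie on both sides of 0 for Zbtb16, Nqo1 and Aldh3a1.

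The largest difference among the named genes that passed was that of Aldh3a1. Aldh3a1, an aldehyde dehydrogenase that clears lipid-derived aldehydes, read 10.27, 9.47 and 8.39 on day 3 in rats 324, 323 and 303, against 13.46, 14.13 and 13.62 on day 1. The days are far apart in every rat, and the fall was least in rat 324. The difference was -4.36 ± 0.68 (SE, n = 3 rats; limma adjusted p = 0.00233). In vehicle-treated irradiated skin the same difference was -0.13, and in unirradiated skin -1.79. The RTA-408 difference did not pass without rat 323 (adjusted p = 0.19), without rat 303 (0.141) or with the array set as a further block (0.288).

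Gstm1, a mu-class glutathione transferase that couples glutathione to electrophiles, read 11.07, 11.24 and 10.89 on day 3, against 14.41, 13.79 and 14.52 on day 1. The 3 rats were close together on each day and about equally far apart between days. The difference was -3.17 ± 0.40 (SE, n = 3 rats; limma adjusted p = 0.00011), beside -0.83 in irradiated vehicle skin and -0.71 in unirradiated skin. Its call was kept in each of the 11 alternative settings tried, with adjusted p between 1.55e-05 and 0.0225.

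Nqo1, a quinone reductase and the textbook NRF2 target, read 10.80, 12.40 and 12.44 on day 3, against 13.74, 14.97 and 14.99 on day 1. Rat 324 was the lowest on both days, and the fall was of like size in the 3 rats. The difference was -2.69 ± 0.46 (SE, n = 3 rats; limma adjusted p = 0.00892), beside -0.31 in irradiated vehicle skin and -0.68 in unirradiated skin. Without rat 324, 323 or 303 the adjusted p was 0.3, 0.175 or 0.0589, and without the rat as a block it was 0.119.

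Gsta1, an alpha-class glutathione transferase, read 12.24, 12.25 and 12.57 on day 3, against 14.75, 13.79 and 13.95 on day 1 (difference -1.81 ± 0.33, SE, n = 3 rats; limma adjusted p = 0.0184). Gstp1, the pi-class transferase, read 12.33, 11.55 and 11.47 on day 3, against 14.05, 13.08 and 13.61 on day 1 (difference -1.80 ± 0.35, SE, n = 3 rats; limma adjusted p = 0.0348). In both genes each day 3 array lay below each day 1 array. With the array set as a further block the adjusted p was 0.825 for Gsta1 and 0.745 for Gstp1, and without the rat as a block it was 0.148 and 0.226. Without rat 324 the adjusted p was 0.627 for Gsta1 and 0.3 for Gstp1, and without rat 323 it was 0.213 and 0.175. Glutathione transferases of a class resemble each other in sequence, and how well the probes part them was not tested.

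Gstp1 is shown with the 250 bases before its transcription start, because among the named genes that fell it is the NRF2-list member whose RefSeq promoter window holds the antioxidant response element core (TGACNNNGC, searched on both strands). The window is chr1:210769706-210769955 on the minus strand of GRCr8, printed 5′ to 3′ with the match in capitals, which begins 61 bases before the start.
Gstp1: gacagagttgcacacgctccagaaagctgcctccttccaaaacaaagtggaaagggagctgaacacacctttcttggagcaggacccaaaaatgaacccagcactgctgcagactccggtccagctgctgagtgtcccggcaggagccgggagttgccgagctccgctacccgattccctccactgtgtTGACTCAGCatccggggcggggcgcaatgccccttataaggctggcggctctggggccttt
The core was found in the windows of 10 of the 43 NRF2-list genes with a RefSeq promoter, and in 10.2% of 27457 rat promoters. Of the 12 named genes that passed, 9 had a promoter entry and 2 held the core, Gstp1 and Per2.

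The remaining NRF2-regulated genes that fell were dim. Osgin1, an oxidative-stress-induced growth inhibitor, read 4.58, 4.33 and 4.18 on day 3, against 7.26, 6.14 and 5.79 on day 1. The day 3 arrays were all at or below the negative control median, so the fall from day 1 is known only to be at least 0.26 (fitted difference -2.04 ± 0.27, SE, n = 3 rats; limma adjusted p = 0.000233). On day 1 the Osgin1 value of rat 303 was also below its negative control median, and that of rat 323 was barely above (6.14 against 6.12). The Osgin1 call was lost when the 6 arrays were fitted alone (limma adjusted p = 0.182). Akr7a3, an aldo-keto reductase that detoxifies aflatoxin dialdehyde, read 3.88, 3.42 and 3.61 on day 3, against 4.41, 7.43 and 5.96 on day 1. Its day 1 values were widely spread, rat 324 differed little between the days, day 3 lay at the negative controls, and on day 1 rat 323 alone was above them, so no size is given for its fall (limma adjusted p = 0.02). Without rat 323 its adjusted p was 0.89, without rat 303 it was 0.452, and with the array set as a further block it was 0.349.

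The list of NRF2 target and antioxidant genes held 50 measured genes of 55. Of these, 7 were lower, 0 were higher and 43 did not pass, against 0.0561% of all features lower. At an unadjusted p under 0.05, 26 of the 50 were lower and 0 were higher, where 2.27% of all features were lower. The difference was below 0 in 44 of 50, and 32 of 50 were lower in all 3 rats, where 50.2% and 11.5% of all features were. The median difference of the list was -0.68 with RTA-408, -0.10 in irradiated vehicle skin and -0.23 in unirradiated skin. The list was compiled with earlier results of these data known, so its direction is a description and not independent evidence.

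**Figure D2:**
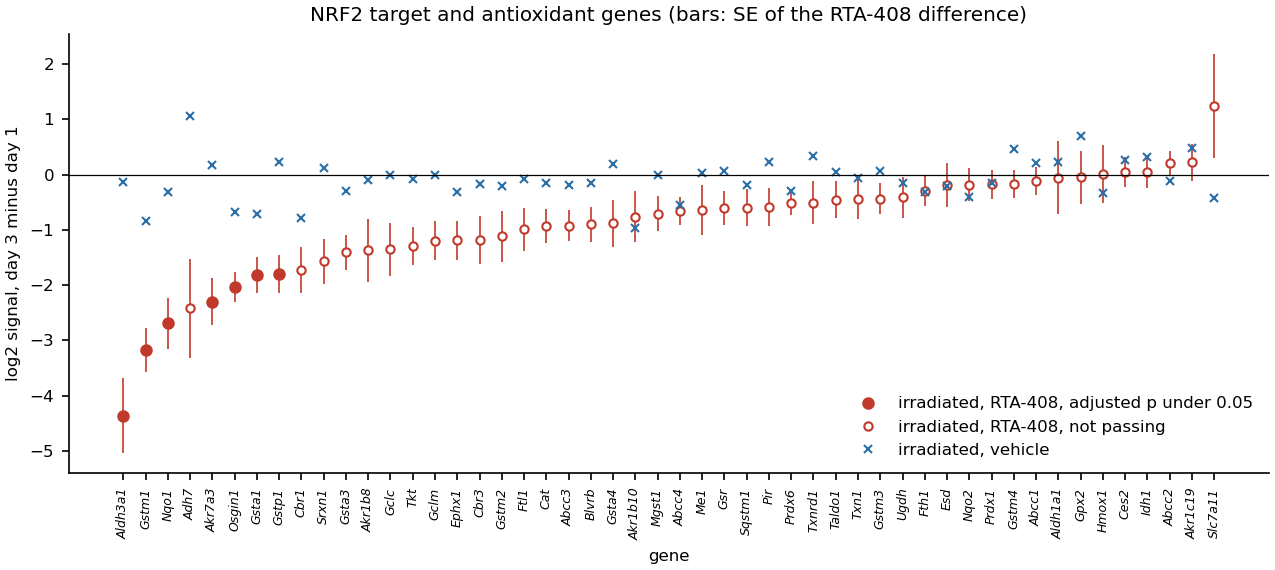
Day 3 minus day 1 in log2 signal (vertical axis) for the 50 measured NRF2 target and antioxidant genes (horizontal axis), ordered by the RTA-408 difference. Circles are RTA-408 differences with SE bars, filled where the adjusted p is under 0.05, and crosses are irradiated vehicle differences. The 7 filled circles are Aldh3a1, Gstm1, Nqo1, Akr7a3, Osgin1, Gsta1 and Gstp1, and 44 of the 50 circles lie below 0.

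The mean of the 50 genes on each array set the RTA-408 groups of day 3 and day 1 apart from each other and from the vehicle groups. The ranges of the irradiated vehicle groups overlapped. It lay between 10.30 and 10.47 on day 3 with RTA-408, against 11.19 to 11.36 on day 1. In irradiated vehicle skin it lay between 9.96 and 10.20 on day 3 and between 10.03 and 10.23 on day 1. In unirradiated skin it lay between 9.72 and 9.81 on day 3 and between 9.89 and 10.00 on day 1. The RTA-408 arrays of day 3 were thus below their own day 1 arrays and still above the irradiated vehicle arrays of both days. In bulk tissue fewer cells of a type and less RNA per cell cannot be told apart.

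Genes of glutathione synthesis did not pass. Gclc, the catalytic subunit of the rate-limiting glutamate-cysteine ligase, read 9.17, 7.63 and 8.00 on day 3, against 9.50, 9.98 and 9.36 on day 1 (difference -1.35, limma adjusted p = 0.891). Gclm, its modifier subunit, read 10.70, 9.80 and 9.87 on day 3, against 11.39, 11.65 and 10.90 on day 1 (difference -1.19, adjusted p = 0.619). The days did not overlap for either subunit, and rat 324 had the smallest difference in both. Slc7a11, the cystine importer that feeds this pathway, was singled out after its values were seen, with a difference of 1.24 ± 0.95 (SE, n = 3 rats; limma adjusted p = 1) and opposite signs among rats (-0.47, 1.90 and 2.29).

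Redox-recycling and NADPH genes did not pass either. Srxn1, sulfiredoxin, which repairs over-oxidised peroxiredoxins, read 9.29, 8.72 and 8.89 on day 3, against 10.81, 10.87 and 9.93 on day 1 (difference -1.57, limma adjusted p = 0.411). Tkt, the transketolase of the pentose phosphate pathway, read 15.09, 14.11 and 14.64 on day 3, against 15.62, 16.32 and 15.76 on day 1 (difference -1.29, adjusted p = 0.453). The days did not overlap for these 2 genes, whereas those of Txnrd1, thioredoxin reductase, did (difference -0.51, adjusted p = 1). Adh7, a retinol and ethanol dehydrogenase, had a large but uneven difference of -2.42 ± 0.89 (adjusted p = 0.952), with -0.69 in rat 324, -3.24 in rat 323 and -3.33 in rat 303.

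Hmox1, the haem oxygenase that degrades haem, had values of 9.41, 10.59 and 11.25 on day 3, against 9.84, 10.91 and 10.46 on day 1 (difference 0.01 ± 0.52, SE, n = 3 rats; limma adjusted p = 1). Its sign turned with the array set as a block (-0.15) and without rat 303 (-0.38). The iron-storage genes Ftl1 and Fth1, chosen after their values were seen, had differences of -0.99 and -0.30 (adjusted p = 0.99 and 1). None of the 12 measured regulators of the pathway passed by limma, and 0 of them reached an unadjusted p under 0.05. Nfe2l2, which encodes NRF2, differed by 0.21 and Keap1 by -0.23 (adjusted p = 1 each).

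The course over all days is given for 3 of the NRF2-regulated genes that fell, whose means in the RTA-408 arm were highest on day 1. Gstm1 averaged 12.30, 14.24, 11.06, 10.80 and 9.94 on days -4, 1, 3, 7 and 14, and the 6 baseline arrays of day -10 averaged 9.38. By day 14 its range of 9.74 to 10.23 overlapped the 9.79 to 10.30 of irradiated vehicle skin. Nqo1 averaged 13.04, 14.57, 11.88, 12.40 and 10.90 on the same days, with a baseline of 7.25. Nqo1 in irradiated vehicle skin averaged 9.15, 10.80, 10.49, 11.97 and 11.34, so that from day 7 on the ranges of the drug and vehicle arrays overlapped. Aldh3a1 averaged 12.66, 13.73, 9.38, 7.83 and 8.59, and on day 3 its range of 8.39 to 10.27 overlapped the 8.09 to 9.54 of irradiated vehicle skin.

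**Figure D3:**
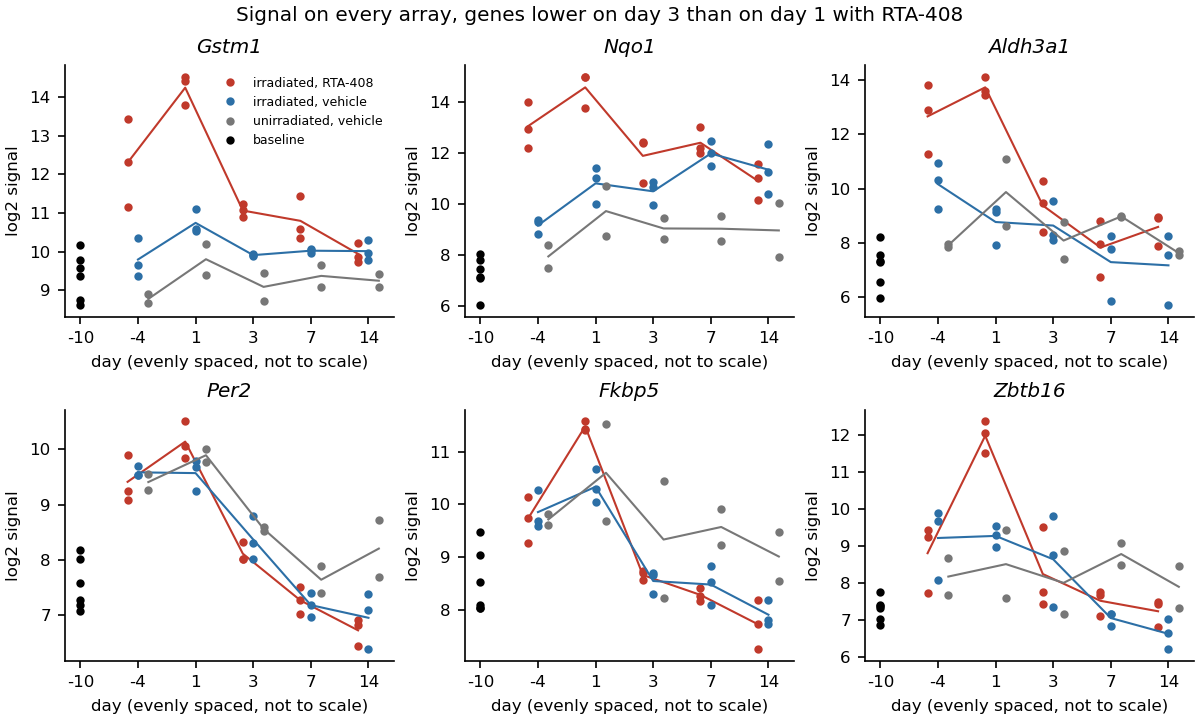
Log2 signal on every array (vertical axis) by day (horizontal axis, days evenly spaced) for 6 genes that passed the test and fell in the RTA-408 arm. Points are arrays and lines join group means, with irradiated RTA-408, irradiated vehicle, unirradiated vehicle and the 6 baseline arrays in separate colours. Gstm1 and Nqo1 peak on day 1 with RTA-408 at means of 14.24 and 14.57, and Per2 is lower on day 3 than on day 1 in all 3 arms.

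Star, which carries cholesterol into mitochondria for steroid synthesis, was not a member of the NRF2 list. It read 6.50, 5.84 and 6.45 on day 3, against 9.80, 8.64 and 8.11 on day 1. The days did not overlap, and rat 324 was highest on both. The difference was -2.59 ± 0.29 (SE, n = 3 rats; limma adjusted p = 3.29e-05), beside -0.82 in irradiated vehicle skin and -0.60 in unirradiated skin. Star averaged 5.46 on day 3 in irradiated vehicle skin, and 4.97 and 5.57 on days 3 and 1 in unirradiated skin. The negative control medians of those arrays were 6.01 to 6.52, so the differences of the vehicle arms are limited by background. Its call held in 10 of 11 alternatives, and was lost when the 6 arrays were fitted alone (adjusted p = 0.163). In the RTA-408 arm Star averaged 7.67, 8.85, 6.26, 5.58 and 5.30 on days -4, 1, 3, 7 and 14, and on days 7 and 14 it was at the negative controls, as at baseline.

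Per2, a repressor of the circadian clock, read 8.32, 8.02 and 8.01 on day 3, against 10.51, 10.05 and 9.85 on day 1. The fall was of like size in the 3 rats, with -2.19, -2.04 and -1.84. The difference was -2.02 ± 0.24 (SE, n = 3 rats; limma adjusted p = 5.76e-05). It was -1.20 ± 0.24 in irradiated vehicle skin (adjusted p = 0.217) and -1.33 in unirradiated skin (adjusted p = 0.41), so Per2 was lower on day 3 in all 3 arms. No rat of any arm had both days in the same array set, so the arms share a change of set too. With the array set as a further block the RTA-408 difference of Per2 was -1.80 (limma adjusted p = 0.0239). Its call was lost when the 6 arrays were fitted alone (adjusted p = 0.0717).

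The 250 bases before the Per2 start are shown because they hold the D-box TTATGNAA, the element bound by Dbp and Tef, whose own signals are given next. The window is chr9:99496994-99497243 on the minus strand of GRCr8, from RefSeq, printed 5′ to 3′ with the D-box in capitals, which begins 192 bases before the start.
Per2: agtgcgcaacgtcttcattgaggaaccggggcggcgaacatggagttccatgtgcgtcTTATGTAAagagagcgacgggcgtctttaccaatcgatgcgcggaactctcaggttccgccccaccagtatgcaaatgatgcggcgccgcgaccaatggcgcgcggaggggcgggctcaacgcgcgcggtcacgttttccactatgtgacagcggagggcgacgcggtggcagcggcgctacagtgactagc
The D-box, searched on both strands, was in 3.21% of 27457 rat promoters and in 1 of 15 clock genes with an entry, and the E-box CACGTG was in 5.79% of promoters and in 3 of the 15 (Tef, Bhlhe40 and Ciart).

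Of 16 measured clock genes 1 (Per2) was lower and 15 did not pass. At an unadjusted p under 0.05, 6 were lower and 1 was higher, where 2.27% of all features were lower and 2.24% higher, and 0.0561% of all features were called lower. Named after their values were seen, the other 5 on the low side were Tef (-1.40), Dbp (-1.33), Per3 (-1.17), Ciart and Cry1, of which Dbp and Tef encode activators that oscillate with the clock and the rest encode repressor or output proteins. Each was lower in all 3 rats. Ciart and Cry1 were at the negative controls on day 3, so Ciart is known only to be at least 0.69 lower on day 3 and no size is given for Cry1. The higher one was Bmal1, the activator of the opposite phase, with 0.82 (adjusted p = 0.723). Bmal1 differed by 0.80 in irradiated vehicle skin and by 1.01 in unirradiated skin, and Dbp by -0.82 and -1.91. The list median was -0.43 with RTA-408, -0.14 in irradiated vehicle skin and -0.42 in unirradiated skin. The labels give no hour of biopsy.

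**Figure D4:**
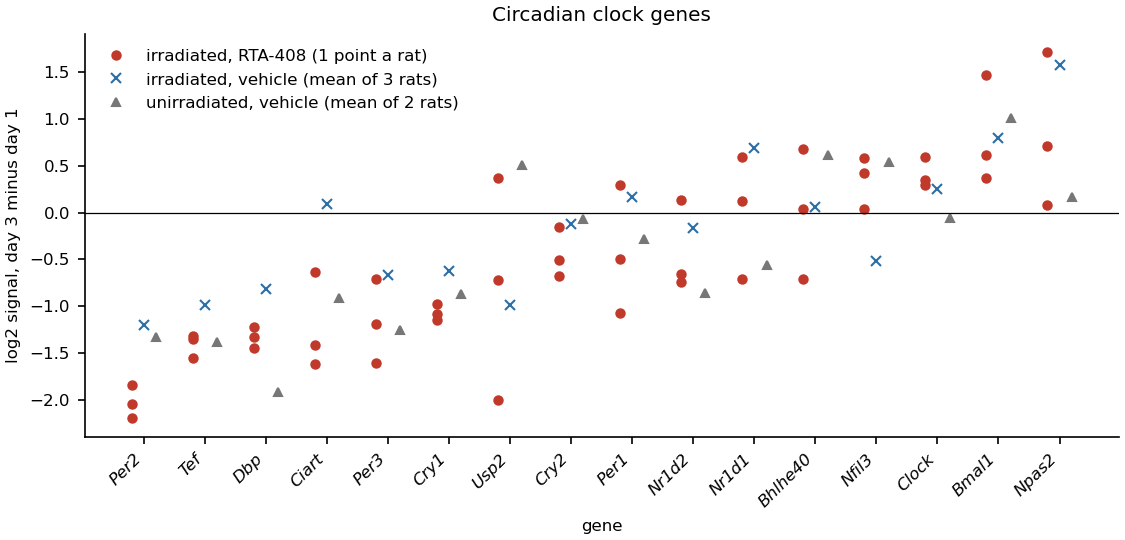
Day 3 minus day 1 in log2 signal (vertical axis) for the 16 measured clock genes (horizontal axis). Circles are the 3 RTA-408 rats, crosses the mean of 3 irradiated vehicle rats and triangles the mean of 2 unirradiated rats. Per2, Tef, Dbp, Per3 and Cry1 are below 0 and Bmal1 is above 0 in all 3 arms.

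Zbtb16, a zinc-finger repressor strongly induced by glucocorticoids, read 9.52, 7.76 and 7.44 on day 3, against 12.38, 12.05 and 11.52 on day 1. Rat 324 stayed highest on day 3, and the days did not overlap. The difference was -3.74 ± 0.57 (SE, n = 3 rats; limma adjusted p = 0.00185), beside -0.63 in irradiated vehicle skin and -0.51 in unirradiated skin. The call was lost without rat 323 (adjusted p = 0.175), without rat 303 (0.0788) and with the array set as a further block (0.349). In the RTA-408 arm Zbtb16 averaged 8.80, 11.98, 8.24, 7.51 and 7.23 on days -4, 1, 3, 7 and 14, and 7.29 at baseline.

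Fkbp5, a co-chaperone of the glucocorticoid receptor and one of its targets, read 8.69, 8.56 and 8.73 on day 3, against 11.42, 11.58 and 11.43 on day 1. The arrays of each day lay close together. The difference was -2.81 ± 0.44 (SE, n = 3 rats; limma adjusted p = 0.00233), but it was also -1.78 in irradiated vehicle skin and -1.26 in unirradiated skin (adjusted p = 0.68 and 0.751). The call did not hold without rat 324, 323 or 303 (adjusted p = 0.0936, 0.175 and 0.102) or with the array set as a further block (0.116).

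Of 15 measured glucocorticoid-responsive genes 2 were lower (Zbtb16 and Fkbp5) and 13 did not pass, against 0.0561% of all features called lower. At an unadjusted p under 0.05, 4 were lower and 1 was higher, where 2.27% of all features were lower and 2.24% higher. The other 2 on the low side, named after their values were seen, were Tsc22d3, which encodes the anti-inflammatory GILZ (-1.33), and the sulfotransferase Sult1a1 (-1.28). Sult1a1 differed by about as much in the other arms, -1.23 in irradiated vehicle skin and -1.31 in unirradiated skin. The higher one was the kinase gene Sgk1 (0.64). The list median was -0.35 with RTA-408, -0.36 in irradiated vehicle skin and -0.28 in unirradiated skin.

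Of the 2 features that rose, the named gene is Gp2, which encodes a membrane glycoprotein known as a bacterial receptor on intestinal M cells. Gp2 read 5.88, 6.35 and 6.58 on day 3, against 3.78, 4.13 and 4.12 on day 1. All day 1 arrays were at the negative controls, so day 3 is known only to be at least 0.16 higher (fitted difference 2.26 ± 0.26, SE, n = 3 rats; limma adjusted p = 3.29e-05). Rats 323 and 303 were above the negative controls on day 3 and rat 324 was not, and no array of the other groups of the series was above them. The call held in each of the 10 alternatives that kept the gene, with adjusted p up to 0.0381, but the gene is dim and falls out when the 5797 dimmest features are left out. The second feature (TC0700001919.rn.2) has no symbol, was at the negative controls on both days, and differed by 1.73 with RTA-408 and by 1.65 in irradiated vehicle skin, where it also passed (adjusted p = 0.00395).

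With fewer than 3 features passing on the high side, the genes with the smallest unadjusted p are given as not passing. Ccl20, the chemokine that draws CCR6-bearing T cells and dendritic cells, read 12.36, 12.43 and 12.75 on day 3, against 9.57, 9.13 and 9.86 on day 1 (difference 2.99 ± 0.66, SE, n = 3 rats; limma adjusted p = 0.127). It differed by 1.32 in irradiated vehicle skin. Ccl20 passed in 4 alternatives, such as the fit of the 6 arrays alone (adjusted p = 0.0151) and that of the arm alone (0.0135). Clca1, a secreted regulator of chloride channels, read 5.98, 7.27 and 6.48 on day 3, against 4.00, 4.11 and 3.97 on day 1, where it was at the negative controls (at least 0.47 higher on day 3, adjusted p = 0.117). Gpr15lg, a chemoattractant made by epithelia, overlapped between the days, with 7.76, 13.32 and 12.16 on day 3, against 6.13, 9.46 and 7.69 on day 1 (difference 3.32, adjusted p = 0.132). Triqk, a small endoplasmic reticulum protein gene, had the smallest difference of these, 0.85 (adjusted p = 0.124). Without rat 324, Gpr15lg passed (4.16, adjusted p = 0.0294), and with array weights Clca1 (0.0387), Triqk (0.0458) and Gpr15lg (0.0263) passed. Gpr15lg went on to 14.21 on day 7 with RTA-408, and averaged 14.23 on day 7 in irradiated vehicle skin, whereas Clca1 was back at the negative controls on day 7.

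**Figure D5:**
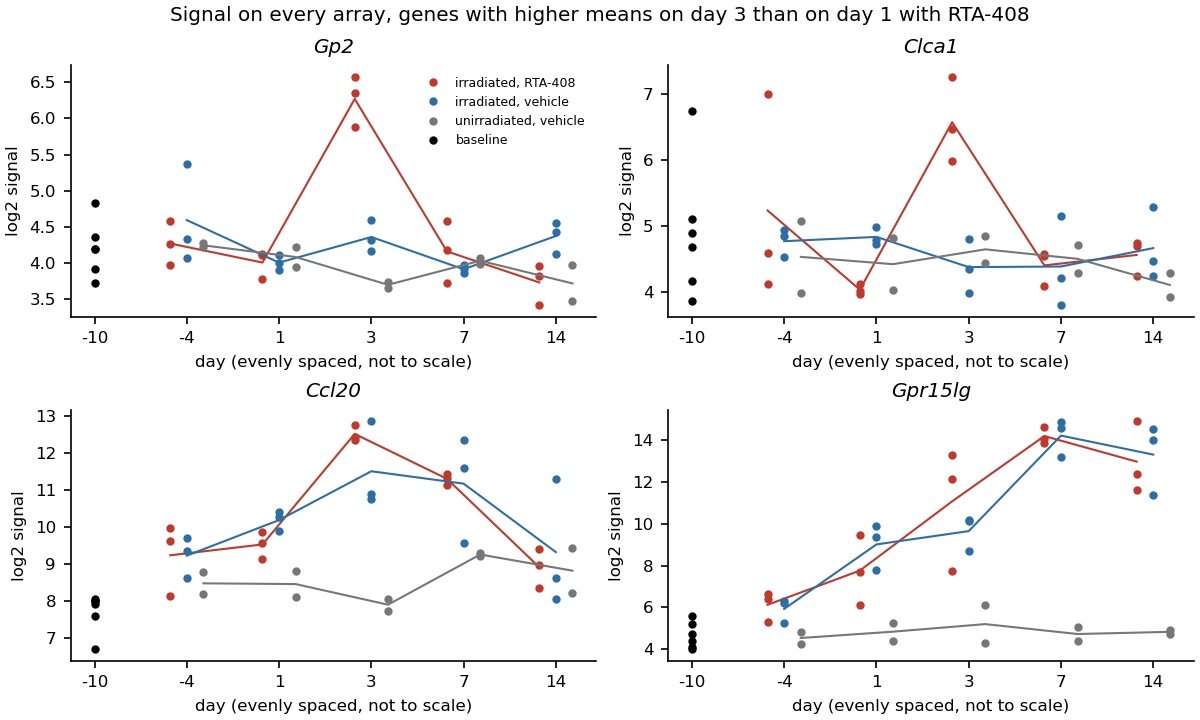
Log2 signal on every array (vertical axis, a separate range in each panel) by day (horizontal axis, days evenly spaced) for Gp2, which passed the test, and for Clca1, Ccl20 and Gpr15lg, which did not. Points are arrays and lines join group means for irradiated RTA-408, irradiated vehicle and unirradiated vehicle, with 6 baseline arrays. Gp2 stands at 5.88 to 6.58 on day 3 with RTA-408 and Gpr15lg reaches means of 14.21 with RTA-408 and 14.23 with irradiated vehicle on day 7.

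Wound and stress keratinocyte genes, those that epidermal cells switch on when they are injured, lay mostly above 0 without passing. Of 21 measured members 0 passed by limma, and 7 were higher and 0 lower at an unadjusted p under 0.05. Of all features 2.24% were higher at that p. The difference was above 0 in 19 of the 21, where 49.8% of all features were above 0. The list median was 0.99 with RTA-408, -0.05 in irradiated vehicle skin and -0.04 in unirradiated skin. S100a9, an antimicrobial calcium-binding protein of neutrophils and stressed keratinocytes, read 8.75, 10.88 and 13.55 on day 3, against 6.85, 8.31 and 6.66 on day 1 (difference 3.79 ± 1.43, SE, n = 3 rats; adjusted p = 0.961). S100a9 differed by -3.78, 2.03 and 0.40 in the 3 irradiated vehicle rats and by -4.91 and 2.45 in the 2 unirradiated rats. With RTA-408, rat 303 was far higher than the other 2 on day 3. On that array 8 red blood cell genes averaged 12.47, against 10.06 and 9.98 on the other day 3 arrays and 9.44 to 10.44 on day 1, and 28 interferon-stimulated genes averaged 7.40, against 6.74 and 6.75 on the other day 3 arrays and 6.78 to 6.87 on day 1. All 8 red blood cell genes had differences above 0 (median 0.77), beside medians of -0.04 in irradiated vehicle skin and -0.17 in unirradiated skin. Taken rat by rat, the median difference of the red blood cell genes was -0.48 in rat 324, 0.42 in rat 323 and 1.95 in rat 303, and that of the 21 keratinocyte genes was 0.70, 0.89 and 1.27 in the same order. The mean of 20 neutrophil genes lay between 6.11 and 6.87 on the day 3 arrays and between 5.80 and 5.88 on the day 1 arrays. Only 6 to 10 of the 20 exceeded the negative control median on these arrays. In irradiated vehicle skin the mean lay between 5.70 and 6.12 on day 3 and between 5.68 and 6.58 on day 1. The part of neutrophils in the keratinocyte values was not tested. On each array the mean of the 21 genes lay between 8.53 and 10.05 on day 3 and between 7.85 and 8.38 on day 1, while in irradiated vehicle skin it lay between 8.28 and 8.97 on day 3 and between 8.11 and 9.46 on day 1.

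Lcn2, which encodes the siderophore-binding protein lipocalin 2, read 11.07, 10.64 and 10.26 on day 3, against 7.13, 6.37 and 5.87 on day 1. The days were far apart and the difference was alike in the 3 rats (3.94, 4.28 and 4.39). Lcn2 did not pass where the spread was shared with the other arrays of the series (4.20 ± 2.34, SE, n = 3 rats; limma adjusted p = 1), and passed where the 6 arrays were fitted alone (adjusted p = 0.00411). It differed by 0.75 in irradiated vehicle skin and by 1.98 in unirradiated skin.

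Lipid-storing cell genes lay below 0 without passing. All 14 measured adipocyte genes had differences below 0, 8 of them in all 3 rats (median -0.48, beside -0.01 in irradiated vehicle skin and -0.24 in unirradiated skin), and 0 passed by limma, 3 at an unadjusted p under 0.05. Of all features 50.2% were below 0, 11.5% were lower in all 3 rats and 2.27% were lower at that p. Pnpla2, the adipose triglyceride lipase gene, differed by -1.28 (adjusted p = 0.189) and passed with array weights (0.0387), while Adipoq, the adiponectin gene, was bright and differed by -0.36. The 19 sebaceous gland genes had a median of -0.77, but the rats disagreed. Awat2, a wax synthase gene singled out after its values were seen, differed by 3.65 in rat 324, by -6.03 in rat 323 and by -2.07 in rat 303.

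Genes of the p53 and inflammatory responses to radiation did not pass. Cdkn1a, the p53-induced cell-cycle inhibitor, read 14.90, 14.54 and 14.09 on day 3, against 15.24, 14.96 and 15.19 on day 1 (difference -0.62, limma adjusted p = 1). Of 26 p53 target genes 0 passed by limma, and 1 was higher and 1 lower at an unadjusted p under 0.05, near the 2.24% and 2.27% of all features. Mdm2 (0.02), Il1b (at the negative controls on day 1), Il6 (0.13), Tgfb1 (0.19) and Col1a1 (-0.10) did not pass (adjusted p = 1 each). The signs for Mdm2, Il6 and Tgfb1 turned with the array set as a further block. Of 30 inflammatory cytokine and chemokine genes 0 passed by limma, and 3 were higher and 0 lower at an unadjusted p under 0.05. Of the 30, 23 were above 0 (median 0.15, beside -0.11 in irradiated vehicle skin), where 49.8% of all features were above 0. Only 10 to 13 of the 30 exceeded the negative control median on an RTA-408 array of these days. Of 15 NF-kB feedback genes 0 passed, and 3 were higher and 0 lower at that p (median 0.49, beside 0.09). Their mean lay between 8.87 and 8.98 on the day 3 arrays, against 8.35 to 8.63 on day 1.

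The same interval without the drug gave fewer calls. In irradiated vehicle skin 2 features were higher and 0 lower on day 3 than on day 1 by limma (0.00863% and 0% of features), with 1084 features at an unadjusted p under 0.05. They were the unnamed feature given above and Gria4, a glutamate receptor subunit gene (2.24 ± 0.33, SE, n = 3 rats; adjusted p = 0.00395), which differed by 1.09 with RTA-408 (adjusted p = 0.672). In unirradiated skin 0 features passed by limma, with 1513 at an unadjusted p under 0.05. The mean of its 25 muscle genes was 15.95 on day 3 and 7.62 on day 1 in rat 319, but 14.42 and 14.84 in rat 318. The day 1 array of rat 319 thus stood apart in muscle signal, and each unirradiated difference given here includes that array.

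The test of the difference between the arms called no feature. By limma, 0 of 23188 features differed between the day 3 minus day 1 change with RTA-408 and that with vehicle in irradiated skin, with 604 at an unadjusted p under 0.05 and a smallest adjusted p of 0.404, for Gp2. The RTA-408 difference minus the vehicle difference was -4.23 ± 0.96 for Aldh3a1, -1.77 ± 0.41 for Star, -2.34 ± 0.56 for Gstm1 and 1.91 ± 0.36 for Gp2 (SE, 3 rats an arm), and the limma adjusted p was 1 for each but Gp2. Among the other named genes that passed in the RTA-408 arm, it was -3.11 ± 0.80 for Zbtb16, -2.38 ± 0.65 for Nqo1 and -2.03 ± 0.49 for Gstp1. It was smaller for Gsta1 (-1.10 ± 0.47), Fkbp5 (-1.03 ± 0.62) and Per2 (-0.82 ± 0.34). Osgin1 and Akr7a3 were at the negative controls in irradiated vehicle skin on both days, so a fall could not have been measured there. Gp2 was at the negative controls on day 1 with RTA-408 and on both days in irradiated vehicle skin. Star averaged 5.46 on day 3 in irradiated vehicle skin, below the negative control medians of those arrays. The sizes between the arms for Gp2 and Star are thus limited by background. Without rat 324, Akr7a3 passed the test between the arms (limma adjusted p = 0.00174). With RTA-408 it was at the negative controls on day 3 too, and on day 1 a single array was above them. The pass thus rests on signal above background in that array alone, and no size is given for it.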

How the data were processed

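RNA from skin punches (100 ng, mean RNA integrity number 7.15, 2.5 ug of cDNA hybridised, per the labels) was measured on 1-colour Clariom S arrays. The table deposited by the authors holds 1 log2 signal per feature and array. The background correction and normalization behind it are not given in the sources used here, and none was added. Of 24834 features 1646 controls were left out, and 15049 of the 23188 tested have 1 gene symbol in the array annotation, with 8139 unnamed. For a gene with several features the brightest was used.

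Groups were taken from titles. The description of the second unirradiated array of day 1 gives another day, and its title and source were followed. A linear model with 1 mean for each of 16 groups and the rat as a fixed block was fitted to all 46 arrays of 9 rats with limma 3.58.1 in R 4.3.3 (22 residual and 4 prior degrees of freedom), and called features had a Benjamini-Hochberg adjusted p under 0.05. An exact permutation test of 3 against 3 arrays could not go below 0.1. The pairing comes from the rat numbers in the titles. Deviations from the group means of the same rat on both days correlated at -0.244, -0.115 and 0.065 in the RTA-408 arm. Array sets were read from the dap spike-in (10.85 to 11.37 in set III, at most 10.52 elsewhere) and an ERCC spike-in (9.38 to 9.99 in set I, at least 10.27 in set II).

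A group counts as at the negative controls where none of its arrays exceeded its own negative control median, and "at least" counts from that level. The members and the 44 gene lists (878 of 1053 entries measured) were chosen with earlier results of these data known. Named genes were the 12 highest and 12 lowest called with 1 symbol and the same direction in all rats (or, with fewer than 3, the 5 smallest unadjusted p), up to 4 called or 2 uncalled members of each list, the 4 smallest p each way between arms, and a fixed panel. Other genes are named as chosen after their values were seen. Alternatives changed the block, the arrays fitted, the normalization, the filter on dim features, array weights, the array set and the rats. The number of arrays limits the precision, since a group has 3 or 2 rats.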

Additional observations from a re-analysis of the deposited data

How the results depend on the processing

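Counts for the RTA-408 arm moved with the model. Against 2 higher and 13 lower features, the fit of the 6 arrays alone with the rat as a block gave 7 higher and 5 lower (6 of the 12 shared with the 15), the fit of the arm alone 5 and 8, array weights 8 and 23 (all 15 shared), and the array set as a further block 2 and 5 (all 7 shared). The fit with no replicate block gave 12 calls, of which 11 were shared. Without the dimmest 5797 features 0 were higher. Leaving out 1 rat gave 4 to 8 lower features, 4 without rat 323, 6 without rat 303 and 8 without rat 324, and the 15 features kept their sign.

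The NRF2 list had 7 lower members, against 4 with no replicate block or with the rat as a random block, 3 for the 6 arrays alone, for the arm alone or with the array set, and 2 to 4 without 1 rat. The clock list had 1, against 0 for the 6 arrays alone, 2 for the arm alone and 4 with array weights. The glucocorticoid list had 2, against 0 with the array set and 0 to 1 without 1 rat. In irradiated vehicle skin the 2 higher features became 0 with no replicate block or a random block and 0 to 1 without 1 rat. They became 1 for the compared groups alone (where 1 was lower), the arm alone, the dim filter or the array set. In unirradiated skin 7 features were lower without replicate 1 and 4 higher without replicate 2, with the remaining rat assumed to vary like those of the other groups. The difference between arms had 1 lower feature without RTA-408 replicate 1 (rat 324). This was Akr7a3, whose signal was limited by background in both arms.

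Among named genes 19 of 1386 values turned sign, none of them in genes that passed. With the array set as a block these were Cfi (-0.049), Ung (0.014), Krt14 (-0.037), Krt81 (0.17), RT1-Db1 (-0.13), Krt86 (0.19), Uqcrfs1 (0.047), Tgfb1 (-0.38), Il6 (-0.11), Mdm2 (-0.32) and Hmox1 (-0.15). Leaving out replicate 1, 2 or 3 (rat 324, 323 or 303) gave -0.59 to 0.12 for Lig4 (above 0 without rat 324), -0.64 to 0.15 for Ogg1 (above 0 without rat 323), -0.42 to 0.029 for Uqcrfs1 (above 0 without rat 324) and -1.04 to 0.11 for Gata3 (above 0 without rat 303). It gave -0.16 to 0.61 for Il6 (-0.053 without rat 323), -0.36 to 0.35 for Mdm2 (below 0 without rat 323) and -0.38 to 0.24 for Hmox1 (below 0 without rat 303). The cause of these changes was not tested. A paired difference within an array set could not be had, since no rat of the 3 arms has both days in the same set. Day and array set are therefore partly confounded, and fully so in the unirradiated arm. Signal near the negative controls limits Gp2, Osgin1, Akr7a3 and Clca1, and it limits Star in the arms without RTA-408.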

Other observations

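Several cell-type and pathway lists not described above had no passing member by limma, and are given as values. Macrophage and monocyte genes (29 measured) had a median difference of -0.16 with RTA-408, -1.17 in irradiated vehicle skin and -0.32 in unirradiated skin, with 0 of 29 at an unadjusted p under 0.05 with RTA-408. Endothelial and pericyte genes (24 measured) were lower in all 3 RTA-408 rats in 9 cases (11.5% of all features), with medians of -0.15 with RTA-408, -0.46 in irradiated vehicle skin and -0.55 in unirradiated skin. Unfolded protein response genes were below 0 in 19 of 23 cases with RTA-408 (median -0.27), where 50.2% of all features were below 0, and their median was -0.38 in irradiated vehicle skin and -0.34 in unirradiated skin. Cell division genes were above 0 in 23 of 26 cases with RTA-408 (median 0.38), where 49.8% of all features were above 0, with medians of 0.18 in irradiated vehicle skin and 0.99 in unirradiated skin. The RTA-408 rats disagreed, with medians of 0.99 in rat 324, 0.31 in rat 323 and -0.22 in rat 303. Of the 26 genes 6 were higher in all 3 rats, beside 12.4% of all features.

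Fibroblast and collagen genes (29 measured) had medians of 0.08 with RTA-408, -0.31 in irradiated vehicle skin and -0.43 in unirradiated skin.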
